A study of Homo sapiens with 32 samples.

Results

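Combined treatment of Ishikawa endometrial cancer cells with paclitaxel and the CLK inhibitor SM08502 was compared with vehicle over 4 RNA-seq libraries, out of 32 in the series. Both drugs were given together for 24 h at the concentrations that the labels call the IC50 of this line, 11 nM paclitaxel and 80 nM SM08502, and the vehicle was 0.1% DMSO. There were 2 combination libraries and 2 vehicle libraries, chosen by the line, treatment and replicate number in the sample titles. Ishikawa is an established human endometrial adenocarcinoma line that carries wild-type CTNNB1 per the labels. The remaining libraries were Ishikawa cells given either drug alone (2 of each) and 3 lines labelled as CTNNB1-mutated, Ishikawa-S33Y, SNGM and HEC265, given the same 4 treatments at IC50 doses of their own. Paclitaxel was at 6, 11.7 and 5.6 nM and SM08502 at 85, 350.7 and 149 nM in Ishikawa-S33Y, SNGM and HEC265. Per the labels, RNA input was 350 ng for Ishikawa and 500 ng for the other lines. Line, CTNNB1 status, doses and input therefore cannot be told apart where Ishikawa is compared with the other lines. The labels say that cells were plated in duplicate and do not say whether the duplicates were separate experiments, so the p-values measure only the spread between these libraries, which may be technical.

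CLK1 to CLK4 are nuclear kinases that phosphorylate serine- and arginine-rich (SR) splicing factors, and their transcripts are themselves spliced under the control of SR proteins. SM08502 is described in the labels as a CLK inhibitor, a class developed to lower Wnt signalling through splicing of pathway transcripts. Paclitaxel stabilises microtubules, arrests cells in mitosis and is a standard drug for endometrial cancer.

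The combination libraries held 16379542 and 13397055 counted reads and the vehicle libraries 16218454 and 13026400. Values are CPM, read counts scaled to a library total of 1000000, and changes are differences of log2(CPM + 1), a scale that understates the change of genes with low CPM. The combination replicates were the closest pair of this line, with a root mean square difference of 0.125 log2 over 9630 well-expressed genes, against 0.229 for vehicle, 0.459 for SM08502 and 0.569 for paclitaxel. A length score, the mean log2(CPM + 1) of 50 long mRNAs minus that of 77 ribosomal protein mRNAs, was -3.20 and -2.66 in vehicle 1 and 2 and -3.29 and -3.44 in combination 1 and 2. Vehicle 2 had the highest score of the 4, so relatively more of its reads lay on long mRNAs. Where 4 counts of a list are given together, they are the counts called without vehicle 1, vehicle 2, combination 1 and combination 2, in that order. PLCG2, whose locus contains a 7SK pseudogene (RN7SKP176) in RefSeq, took 3.12% and 2.35% of vehicle reads and 4.69% and 5.03% of combination reads.

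The combination raised 1975 genes and lowered 1911 of 17011 tested, by limma with Benjamini-Hochberg adjustment over all genes at an adjusted p under 0.05. These are 11.6% and 11.2% of the genes tested, and 22.8% together. Counts of list members given below are to be read against these shares. Larger changes were mostly falls: 358 called genes were at least 2-fold lower and 157 at least 2-fold higher. The median change over all genes was 0.03 log2. The groups did not overlap for any of the 3886 called genes, and they did not overlap for 68.9% of all genes tested. The split between higher and lower calls depended on the scaling: 50.8% were higher with CPM, 56.2% with re-centred libraries and 36.6% with median-of-ratios size factors. With the 8 Ishikawa libraries alone, which include the widely spread SM08502 and paclitaxel pairs, 362 genes were called. With the 4 compared libraries alone 4977 were called, 3423 of them shared with the main fit. Leaving out vehicle 1, vehicle 2, combination 1 or combination 2 in turn left 2520, 1873, 2060 and 1674 calls, with the lone library assumed to vary like the other groups.

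**Figure D1:**
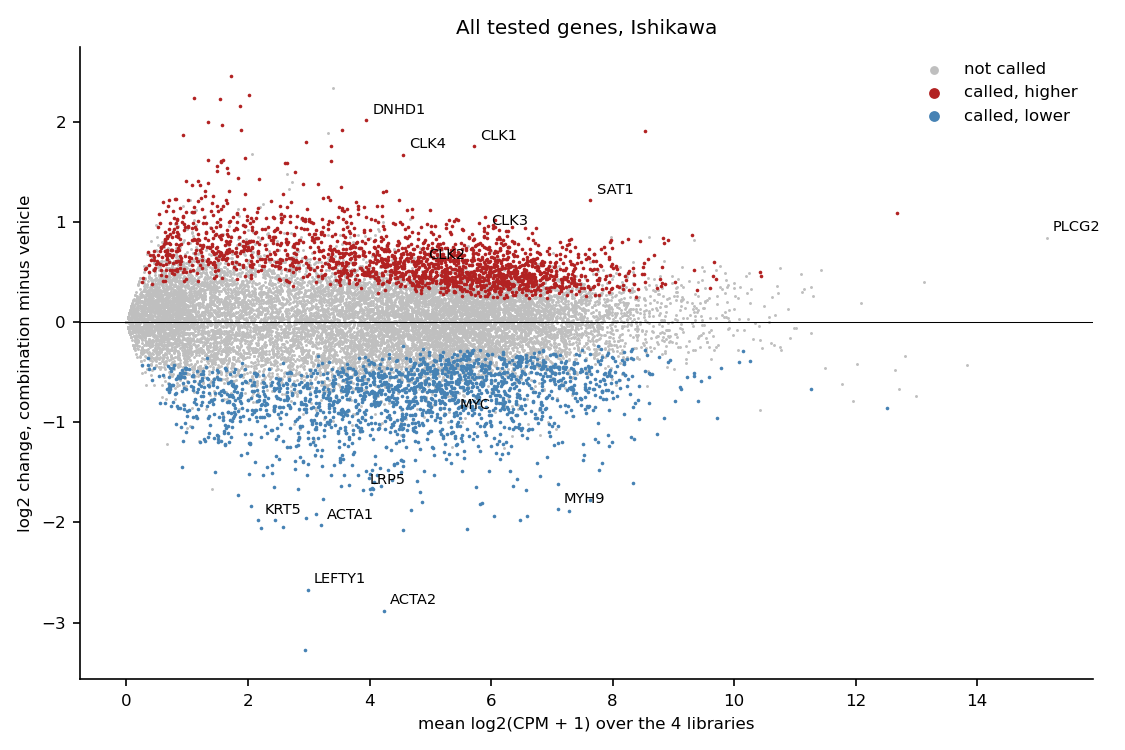
Log2 change (combination minus vehicle, vertical axis) against mean log2(CPM + 1) over the 4 libraries (horizontal axis) for the 17011 tested genes. Red and blue points are the 1975 genes called higher and the 1911 called lower, and the lower side reaches further (ACTA2 at -2.88) than most of the upper side (CLK1 at 1.76).

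All 4 CLK genes rose. CLK1 (chromosome 2, 200853009 to 200864658, GRCh38.p14) read 26.6 and 28.5 CPM in vehicle and 94.6 and 96.4 CPM in the combination, a change of 1.76 log2 (SE 0.14, adjusted p = 1.45e-07). CLK4 (chromosome 5, 178602664 to 178627050) went from 11.9 and 12.3 to 40.0 and 41.4 CPM (1.67 log2, adjusted p = 1.12e-06). CLK3 rose by 0.91 log2 (adjusted p = 0.000216) and CLK2 by 0.57 log2 (adjusted p = 0.00213). In no case did the groups overlap, and all 4 calls were made with any 1 library left out, while 2 of 4 were made with the Ishikawa libraries alone.

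Genes of the SR proteins, which CLKs act on, were called in both directions. Of 12 SR protein genes 2 rose and 3 fell, with a median change of -0.15 log2, and the largest moves were SRSF6 (0.48 log2, 241 and 226 to 331 and 319 CPM, adjusted p = 0.000478) and SRSF8 (-0.69 log2, 81.5 and 82.8 to 52.3 and 48.7 CPM, adjusted p = 0.000375). Of 31 core spliceosome genes 5 rose and 4 fell. PRPF3, a component of the U4/U6 particle, rose from 45.8 and 46.0 to 93.0 and 95.4 CPM (1.02 log2, adjusted p = 1.06e-05). PRPF8, the scaffold of the catalytic core, read 459 and 525 CPM in vehicle and 241 and 198 CPM in the combination (-1.16 log2, adjusted p = 0.00209). THRAP3, an SR-related factor, fell from 120 and 139 to 32.8 and 33.3 CPM (-1.93 log2, adjusted p = 3.74e-05). Of the SR, spliceosome and hnRNP genes 41.7%, 29% and 20.8% were called either way, against 22.8% of all tested genes. Among 24 hnRNP genes 2 rose and 3 fell. Of 17 cleavage and polyadenylation factors 3 rose (17.6%), led by CPSF6 (0.63 log2, adjusted p = 0.000163). Of 10 nonsense-mediated decay factors 1 rose (10%), against 11.6% of all tested genes called higher. These counts are small and most moved with 1 library: the spliceosome genes called higher numbered 5, 2, 2 and 2, the hnRNP genes called lower 1, 1, 1 and 1 and higher 2, 1, 1 and 0, the SR genes called higher 2, 1, 2 and 1, the polyadenylation factors 2, 2, 2 and 2 and the decay factors 1, 0, 0 and 0.

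Of 14 kinases and cyclins that act on RNA polymerase II 7 rose and 0 fell, with a median change of 0.46 log2. CCNT2, a cyclin of the elongation factor P-TEFb, rose from 43.7 and 46.1 to 83.2 and 79.0 CPM (0.84 log2, adjusted p = 2.7e-06). CDK9, its kinase partner, went from 24.6 and 24.6 to 43.8 and 45.1 CPM (0.83 log2, adjusted p = 0.000138). CDK7, CDK13, CCNH, CCNL1 and CCNL2 were the others called, and 6 of the 14 were called with any 1 library left out.

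Most of the 12 largest rises were of transcripts under 10 CPM in vehicle. DNHD1, a gene for a dynein heavy chain domain protein, read 5.61 and 7.83 CPM in vehicle and 31.6 and 28.4 CPM in the combination (2.02 log2, SE 0.28, adjusted p = 4.09e-05). WDR49, a WD-repeat gene, rose from 5.43 and 4.68 to 20.7 and 22.99 CPM (1.92 log2, adjusted p = 8.46e-05). CCDC62, FKBP11 and OVGP1, the oviductal glycoprotein gene, rose by 1.61, 1.60 and 1.50 log2. The remaining names among the 12 largest rises other than CLK1 and CLK4 were 4 clone-named transcripts, among them CTD-2192J16.17, CTD-2666L21.1 and RP11-400G3.5, and the pseudogene RPL41P2. RPL41P2 read 662 and 54.6 CPM in the vehicle libraries and 717 and 725 CPM in the combination, and its change of 1.91 log2 became 0.12 log2 (adjusted p = 0.91) without vehicle 2. The other clone-named transcript, at 2.40 and 0 CPM in vehicle and 9.10 and 6.79 CPM in the combination, was not called without vehicle 2, combination 1 or combination 2 (adjusted p up to 0.349), and CTD-2192J16.17 was not called without vehicle 1 (adjusted p = 0.0523).

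Among abundant genes SAT1, the rate-limiting enzyme of polyamine breakdown, rose from 130 and 129 to 303 and 302 CPM (1.22 log2, SE 0.13, adjusted p = 2.54e-06), named after its values were seen. In the same way, NAT6 (an older symbol of NAA80, an actin acetyltransferase) and the overlapping HYAL3 (chromosome 3, 50292832 to 50299405), a hyaluronidase-family gene, moved in opposite directions. NAT6 went from 1.91 and 1.61 to 6.23 and 6.64 CPM (1.43 log2, adjusted p = 1.07e-05), and HYAL3 from 16.2 and 16.6 to 3.42 and 4.93 CPM (-1.76 log2, adjusted p = 0.00191). The loci overlap, and how reads of overlapping genes and strands were assigned is not given in the sources used here.

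ACTA2 and LEFTY1 were among the largest falls. ACTA2 (chromosome 10, 88935074 to 88991337), smooth muscle alpha-actin, fell 8.46-fold, from 55.6 and 45.0 to 6.29 and 5.60 CPM (-2.88 log2, SE 0.27, adjusted p = 7.71e-07). SLC14A2, a urea transporter, fell by 2.07 log2, EDN2, the endothelin-2 gene, by 2.05 log2, TSPAN18 by 2.06 log2, and KRT5, a basal keratin, by 1.98 log2. ITIH5, SYNPO and MEOX1, a homeobox gene, fell by 1.97, 1.97 and 1.95 log2. The calls of these genes were made with any 1 library left out.

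**Figure D2:**
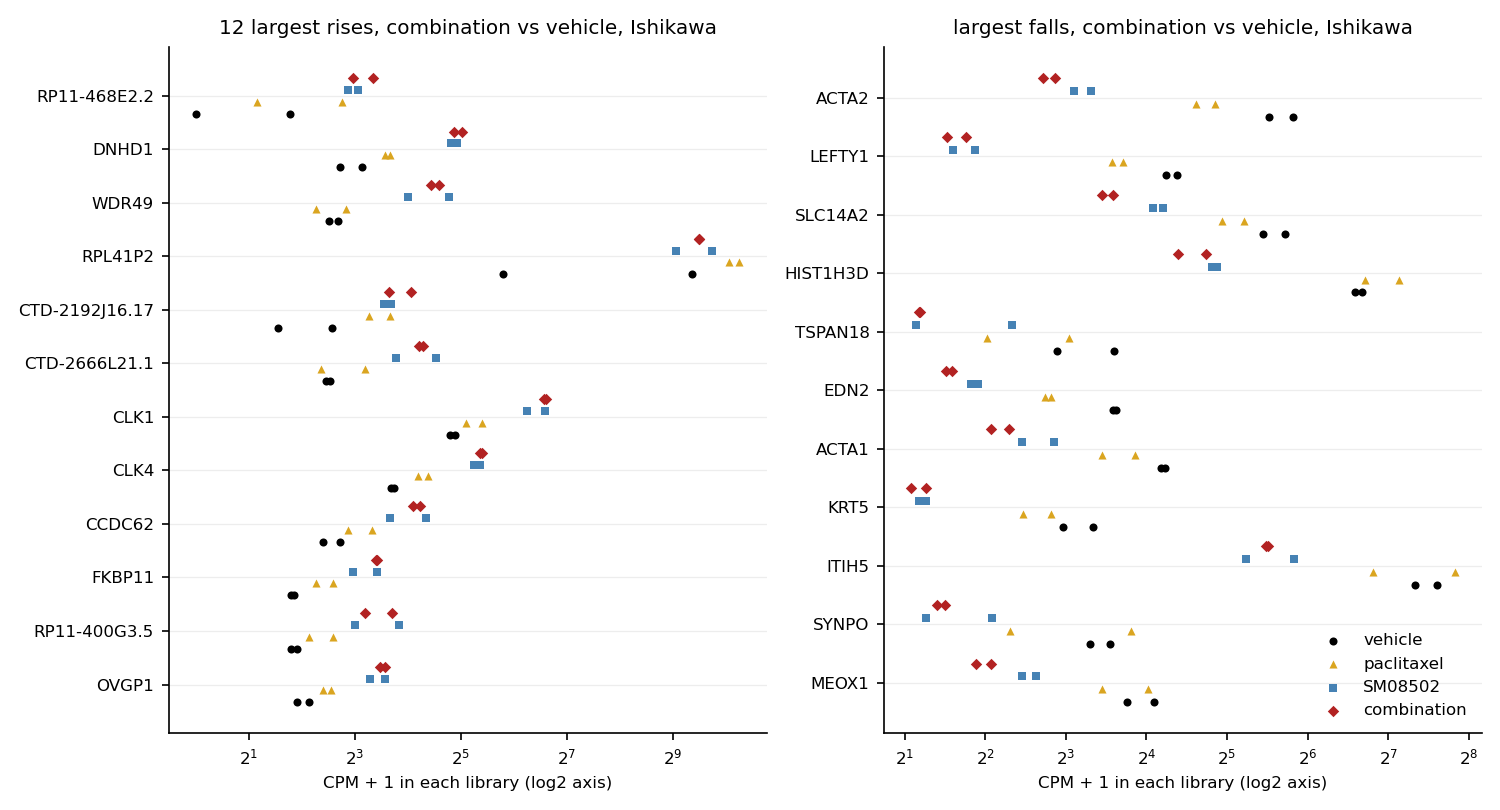
CPM + 1 in each of the 8 Ishikawa libraries (horizontal, log2 axis) for the 12 largest rises and the largest falls, each symbol 1 library. Combination values lie apart from vehicle for the falls shown, and the RPL41P2 vehicle libraries lie far apart (662 and 54.6 CPM).

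LEFTY1 and LEFTY2, the secreted antagonists of Nodal that are also known in endometrium, fell together. LEFTY1 (chromosome 1, 225886282 to 225889146) read 18.0 and 19.9 CPM in vehicle and 1.89 and 2.39 CPM in the combination (-2.67 log2, SE 0.25, adjusted p = 6.54e-07). LEFTY2, its neighbour on the same chromosome (225936603 to 225941220), fell from 24.7 and 33.2 to 8.12 and 7.91 CPM (-1.72 log2, SE 0.15, adjusted p = 2.24e-07). In a list of 7 Nodal pathway genes drawn up after values were seen, 5 passed the filter, and LEFTY1 and LEFTY2 were the members called, with any 1 library left out and also with the Ishikawa libraries alone. The ligand NODAL was at 0.185 and 0.0768 CPM in vehicle and 0.305 and 0.299 CPM in the combination, and the co-receptor TDGF1 at 0.802 and 0.614 against 1.28 and 1.27 CPM (adjusted p = 0.281).

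Of 17 actin and contractile genes, in a list also drawn up after values were seen, 14 fell and 0 rose. Their median change was -0.96 log2 against 0.03 for all genes. Because values were known when the list was drawn up, these figures describe its members and test no set. Many of these genes are known targets of serum response factor (SRF), which binds the CArG box together with actin-sensing cofactors. The 4 promoters shown here belong to members called lower whose RefSeq promoter (GRCh38.p14, 250 bases before to 50 after the start, written 5′ to 3′ on the gene's strand) holds a CArG box, given in capitals. The windows are chr1:229434045-229434344 (minus strand) for ACTA1, chr2:73892758-73893057 (plus) for ACTG2, chr15:34795500-34795799 (minus) for ACTC1 and chr6:43171019-43171318 (plus) for SRF.
ACTA1: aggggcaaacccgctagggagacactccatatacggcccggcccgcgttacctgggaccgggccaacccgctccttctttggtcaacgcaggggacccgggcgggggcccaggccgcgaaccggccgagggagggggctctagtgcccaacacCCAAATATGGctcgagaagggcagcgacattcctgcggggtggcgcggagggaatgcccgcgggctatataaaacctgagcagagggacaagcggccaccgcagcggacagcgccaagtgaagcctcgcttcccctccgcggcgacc
ACTG2: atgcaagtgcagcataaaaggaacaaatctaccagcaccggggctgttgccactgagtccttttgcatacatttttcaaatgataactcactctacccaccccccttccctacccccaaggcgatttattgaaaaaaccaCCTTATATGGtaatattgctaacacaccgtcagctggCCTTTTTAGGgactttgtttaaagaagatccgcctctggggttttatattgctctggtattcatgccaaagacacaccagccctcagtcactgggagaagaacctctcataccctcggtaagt
ACTC1: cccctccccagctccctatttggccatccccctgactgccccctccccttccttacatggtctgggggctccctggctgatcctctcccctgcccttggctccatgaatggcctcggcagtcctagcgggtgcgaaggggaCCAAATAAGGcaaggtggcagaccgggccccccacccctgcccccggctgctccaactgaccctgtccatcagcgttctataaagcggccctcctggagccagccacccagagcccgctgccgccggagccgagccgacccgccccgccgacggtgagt
SRF: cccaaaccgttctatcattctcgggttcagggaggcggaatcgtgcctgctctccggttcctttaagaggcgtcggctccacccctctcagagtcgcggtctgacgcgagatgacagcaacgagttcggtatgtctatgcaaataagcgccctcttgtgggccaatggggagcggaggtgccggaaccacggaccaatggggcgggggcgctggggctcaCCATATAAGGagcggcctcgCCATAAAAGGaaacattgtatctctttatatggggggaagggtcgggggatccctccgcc

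ACTG2 and SRF each hold 2 boxes and ACTA1 and ACTC1 hold 1. The box was searched by its consensus, which reads the same on both strands. A box lies in 1.29% of all 35116 promoter windows. These promoters were picked because they hold one, and the list was drawn up with known SRF targets in it, so no share over the list is given. CNN2 and FLNA also hold a box. ACTA2, the member with the largest fall, has none in its windows. CNN1, TPM1, TPM2, VCL and MYH9, also called lower, have none either, and nor do CNN3 and LMOD1, which were not called. TAGLN, MYL9 and MYH11 had no promoter entry. A match describes letters in these windows and does not show binding.

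ACTA1, skeletal alpha-actin, fell from 17.1 and 17.8 to 3.91 and 3.21 CPM (-2.02 log2, SE 0.20, adjusted p = 1.28e-06). TAGLN, the actin-binding protein transgelin, read 290 and 294 CPM in vehicle and 121 and 111 CPM in the combination (-1.33 log2, adjusted p = 4.11e-05). MYL9, a myosin regulatory light chain, fell from 376 and 338 to 169 and 158 CPM (-1.12 log2, adjusted p = 9.44e-05), VCL, the focal adhesion protein vinculin, from 365 and 390 to 171 and 150 CPM (-1.23 log2, adjusted p = 0.00028), and CNN1, calponin, from 11.3 and 8.21 to 4.21 and 3.43 CPM (-1.15 log2, adjusted p = 0.000728). SRF itself went from 48.6 and 50.4 to 28.3 and 25.4 CPM (-0.86 log2, adjusted p = 0.00459). ACTC1 and ACTG2, which are low in these cells, changed by -0.96 and -0.59 log2 and were called with all 4 libraries but with no library left out (adjusted p from 0.0643 to 0.128 for ACTG2 and from 0.069 to 0.119 for ACTC1). MYH11, LMOD1 and CNN3 were not called.

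Some calls of this list were lost without 1 library. MYH9, non-muscle myosin heavy chain, read 188 and 359 CPM in the vehicle libraries and 73.8 and 67.6 CPM in the combination (-1.87 log2, adjusted p = 0.0042), and without vehicle 2 the change was -1.40 log2 (adjusted p = 0.0868). FLNA, filamin A, read 438 and 716 against 200 and 168 CPM (-1.61 log2, adjusted p = 0.0167), and was not called without vehicle 2 (-1.25 log2, adjusted p = 0.166), combination 1 (adjusted p = 0.0571) or combination 2 (adjusted p = 0.112). SRF was not called without combination 2 (adjusted p = 0.0559). Over the 17 genes, 10, 9, 10 and 8 were called without vehicle 1, vehicle 2, combination 1 and combination 2, and 3 with the Ishikawa libraries alone. With the length score as a covariate 15 were called.

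**Figure D3:**
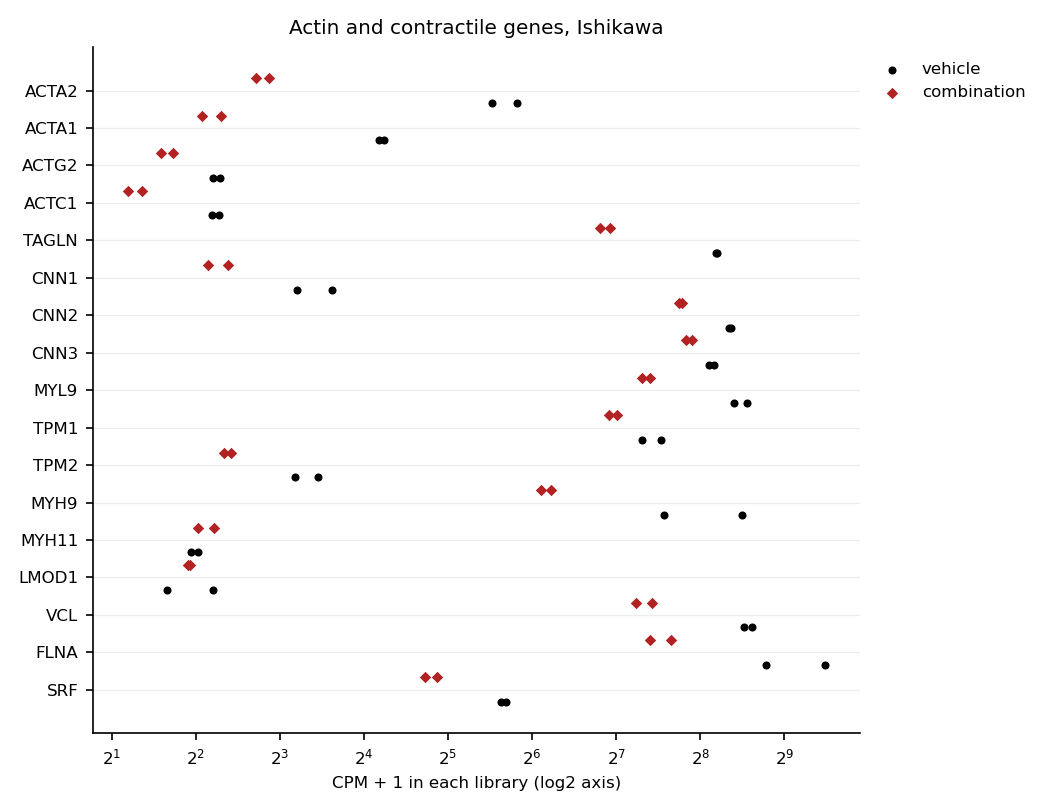
CPM + 1 (horizontal, log2 axis) of 17 actin and contractile genes in the 2 vehicle libraries (black) and 2 combination libraries (red). Combination values lie to the left of vehicle for the 14 genes called lower, and the vehicle libraries of MYH9 (188 and 359 CPM) and FLNA (438 and 716 CPM) are spread.

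Of 19 extracellular matrix genes 10 were lower and 0 higher, with a median of -1.005 log2. This list too was drawn up after values were seen, so the figures describe its members only. COL12A1, a fibril-associated collagen, read 169 and 206 CPM in vehicle and 52.7 and 44.0 CPM in the combination (-1.93 log2, SE 0.28, adjusted p = 5.94e-05). TNC, the matrix glycoprotein tenascin C, fell from 307 and 432 to 115 and 96.7 CPM (-1.78 log2, adjusted p = 0.000871), and COL5A2 from 6.54 and 7.06 to 1.40 and 0.970 CPM (-1.84 log2, adjusted p = 0.000118). Most matrix mRNAs are long, and with vehicle 1, vehicle 2, combination 1 or combination 2 left out 10, 3, 7 and 3 members were called. The part of the length score difference in these falls was not tested beyond the covariate fit, in which 13 were called.

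Targets of YAP, the transcriptional coactivator that responds to cell tension, had a median of -0.65 log2, and 9 of 15 fell and 1 rose. FJX1, a secreted regulator of planar polarity, fell from 30.3 and 27.6 to 9.22 and 10.7 CPM (-1.45 log2, SE 0.17, adjusted p = 7.02e-06). AXL, a receptor kinase counted in this list and among receptors, fell from 19.3 and 20.6 to 6.17 and 8.81 CPM (-1.32 log2, adjusted p = 4.5e-05). CYR61, AMOTL2, AJUBA, F3, NUAK2, ARHGEF17 and CRIM1 were the others called lower. ANKRD1, also a YAP target, went the other way, from 23.6 and 16.9 to 33.2 and 36.1 CPM (0.76 log2, adjusted p = 0.00148), and was not called without vehicle 2 (adjusted p = 0.0522). The lower count was 8, 5, 6 and 5 without vehicle 1, vehicle 2, combination 1 and combination 2.

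Some Wnt receptors and Wnt target genes fell. Of 15 receptors and co-receptors 5 fell and 0 rose (LRP5, FZD2, FZD7, FZD9 and ROR1). LRP5 (chromosome 11, 68298412 to 68449275), a co-receptor for Wnt ligands, read 22.5 and 29.3 CPM in vehicle and 7.02 and 7.69 CPM in the combination, 3.52-fold lower (-1.68 log2, SE 0.33, adjusted p = 0.00102). LRP6, its paralogue, was at 102 and 89.8 against 103 and 91.0 CPM (0.02 log2, interval -0.23 to 0.27). CTNNB1, the beta-catenin gene, was at 357 and 313 against 345 and 319 CPM (-0.01 log2, interval -0.26 to 0.23). None of 16 destruction complex genes was called by limma, with a median of -0.11 log2, while 2 were called lower with median-of-ratios size factors and 2 lower and 2 higher with the length score as a covariate.

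Of 18 tested Wnt feedback and target genes 8 fell and 0 rose. MYC, a growth-promoting transcription factor, fell from 54.3 and 59.1 to 31.2 and 27.3 CPM, 1.94-fold (-0.93 log2, SE 0.13, adjusted p = 3.74e-05). CCND1, cyclin D1, read 392 and 406 CPM in vehicle and 223 and 198 CPM in the combination (-0.92 log2, adjusted p = 0.00469), and was not called without combination 2 (adjusted p = 0.0582). APCDD1, a Wnt inhibitor, fell from 4.69 and 5.53 to 2.08 and 1.57 CPM (-1.12 log2, adjusted p = 1.64e-05). AXIN2, the feedback gene most used as a Wnt reporter, was at 8.14 and 7.52 against 5.86 and 4.48 CPM (-0.53 log2, adjusted p = 0.0355), and was not called without vehicle 1 (adjusted p = 0.154), vehicle 2 (adjusted p = 0.0983) or combination 2 (adjusted p = 0.3). LGR5, ZNRF3, NOTUM and LEF1 were the others called. The target count was 6, 3, 5 and 2 and the receptor count 4, 2, 4 and 4. With the Ishikawa libraries alone 1 target and 0 receptors were called. In each of the 2 lists 10 members were not called and 4 had positive estimates. The ligands WNT5A and WNT7A, named after their values were seen, fell by 1.42 log2 (adjusted p = 0.000537) and 1.20 log2 (adjusted p = 2.39e-05).

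Of 19 receptor tyrosine kinases 10 fell and 0 rose, with a median of -0.62 log2, and all 19 estimates were negative. The members called were AXL, KIT, EPHB2, IGF1R, FGFR1, ERBB2, EPHA2, INSR, FGFR4 and EPHB4. KIT, the stem cell factor receptor, was at 18.7 and 17.8 in vehicle and 9.52 and 6.94 CPM in the combination (-1.07 log2, adjusted p = 0.000642). ERBB2, an amplified target in some endometrial cancers, was at 54.3 and 68.1 against 35.3 and 32.2 CPM (-0.83 log2, adjusted p = 0.00429). The count was 8, 4, 8 and 4 without vehicle 1, vehicle 2, combination 1 and combination 2, and 0 with the Ishikawa libraries alone.

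In the PI3K and mTOR pathway 6 of 17 fell and 0 rose, led by TSC2, a brake on mTOR (79.1 and 98.4 to 41.3 and 38.4 CPM, -1.13 log2, adjusted p = 0.00106). In the Notch pathway 5 of 17 fell and 0 rose, and NOTCH1 read 20.8 and 38.1 CPM in vehicle and 10.6 and 6.42 CPM in the combination (-1.65 log2, adjusted p = 0.00475), a call lost without vehicle 2 (adjusted p = 0.0954) or combination 2 (adjusted p = 0.0834). Without vehicle 1, vehicle 2, combination 1 and combination 2 the counts were 2, 2, 3 and 1 for PI3K and mTOR and 3, 2, 4 and 1 for Notch. In the TGF-beta and BMP pathway 4 of 18 fell, with TGFB1 at 56.0 and 61.6 against 25.3 and 28.7 CPM (-1.10 log2, adjusted p = 0.000934), and ID3, a BMP-responsive gene, rose by 0.63 log2 (adjusted p = 0.00104). The lower count of that list was 2, 1, 3 and 1. IGFBP3, which binds insulin-like growth factors and was named after its values were seen, fell from 314 and 276 to 113 and 112 CPM (-1.37 log2, adjusted p = 1.33e-05).

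Nuclear receptors were lower in 6 of 20 and higher in 0, with a median of -0.38 log2. ESR1, the oestrogen receptor, was at 50.9 and 52.4 against 35.5 and 32.5 CPM (-0.59 log2, adjusted p = 0.0111), and was not called without vehicle 2 (adjusted p = 0.0729) or combination 2 (adjusted p = 0.0986). PGR, the progesterone receptor, was low, at 4.13 and 4.15 against 2.93 and 3.73 CPM (-0.25 log2, adjusted p = 0.425). The nuclear receptor count was 4, 1, 3 and 2 without vehicle 1, vehicle 2, combination 1 and combination 2.

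Of 31 mitotic and spindle genes 3 rose and 0 fell. The share that rose, 9.68%, was near the 11.6% of all tested genes called higher. TTK, the spindle checkpoint kinase, rose from 109 and 123.2 to 194 and 193 CPM (0.73 log2, SE 0.16, adjusted p = 0.00243). CCNB1, cyclin B1, was at 443 and 436 against 510 and 525 CPM (0.23 log2, adjusted p = 0.272). Of 37 DNA replication and E2F genes 8 fell and 2 rose, and RRM2, a ribonucleotide reductase subunit, fell from 324 and 295 to 180 and 182 CPM (-0.77 log2, adjusted p = 0.00118). The lower count was 5, 4, 4 and 3 and the higher count 2, 0, 0 and 0, while the mitotic count was 3, 2, 2 and 2.

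Of 88 replication-dependent histone genes listed, 62 passed the filter, 8 of those fell and 0 rose. The share that fell, 12.9%, was near the 11.2% of all tested genes called lower. HIST1H3D fell from 101.1 and 95.7 to 20.1 and 25.7 CPM (-2.07 log2, SE 0.13, adjusted p = 1.16e-08). The locus overlaps H2AC7 in RefSeq, and histone mRNAs of near-identical sequence can share reads. The lower count was 3, 7, 2 and 4 without vehicle 1, vehicle 2, combination 1 and combination 2, and 27 with the length score as a covariate.

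DNA damage genes included 7 of 25 that rose and 1 that fell. ATR, the kinase of the replication checkpoint, rose from 37.2 and 38.8 to 69.7 and 66.1 CPM (0.82 log2, SE 0.10, adjusted p = 7.04e-06), and ATM, the kinase of double-strand breaks, from 69.5 and 70.1 to 114 and 119 CPM (0.73 log2, adjusted p = 0.00061). MLH3, a mismatch repair gene, rose from 78.0 and 76.2 to 137 and 137 CPM (0.82 log2, adjusted p = 7.23e-05). Of 25 p53 targets 3 rose and 1 fell. CDKN1A, the p21 gene, was at 74.4 and 71.9 against 72.7 and 73.1 CPM (-0.01 log2, interval -0.27 to 0.26), and MDM2 at 237 and 273 against 224 and 218 CPM (-0.20 log2, adjusted p = 0.152). GDF15, a stress-induced cytokine, fell from 10.3 and 10.1 to 4.64 and 5.90 CPM (-0.85 log2, adjusted p = 0.000601). The count of damage genes called higher was 4, 4, 5 and 4, and that of p53 targets 2, 1, 1 and 2.

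Of 15 BCL2 family genes 1 was called, BCL2 itself, an inhibitor of apoptosis, which fell from 14.3 and 18.1 to 7.63 and 8.36 CPM (-0.93 log2, adjusted p = 7.13e-05). MCL1 and BCL2L1 changed by -0.13 log2 (adjusted p = 0.4) and -0.29 log2 (adjusted p = 0.0909). Of 16 tubulin genes 3 were called higher (TUBA1A, TUBD1 and TUBE1) and 2 lower (the beta-tubulins TUBB3 and TUBB4A). Some of these calls in either direction did not hold with 1 library left out. TUBA1A was at 180 and 173 against 258 and 254 CPM (0.53 log2, adjusted p = 0.0171), a call lost with any 1 library left out (adjusted p from 0.0575 to 0.101), and TUBB, the main beta-tubulin, at 1195 and 1149 against 980 and 957 CPM (-0.27 log2, adjusted p = 0.199). ABCB1, the efflux pump that exports paclitaxel, was at 40.2 and 36.9 against 37.0 and 32.6 CPM (-0.15 log2, interval -0.84 to 0.55). ABCC3, a related transporter, fell from 14.6 and 14.3 to 6.72 and 6.42 CPM (-1.03 log2, adjusted p = 0.000546).

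Glycolytic enzymes fell in 7 of 14 and rose in 0, with a median of -0.29 log2. PKM and ALDOA, 2 of the most abundant, changed by -0.38 log2 (adjusted p = 0.0294) and -0.40 log2 (adjusted p = 0.0205). The glycolytic count was 4, 4, 4 and 2 without vehicle 1, vehicle 2, combination 1 and combination 2. In the opposite direction, 9 of 36 nuclear complex I genes rose and 1 fell (median 0.32 log2), and 8 of 31 proteasome genes rose and 2 fell (median 0.26 log2). NDUFA12 of complex I was at 96.2 and 71.8 against 139 and 146 CPM (0.77 log2, adjusted p = 0.0136), a call lost without vehicle 2 (adjusted p = 0.17), combination 1 (adjusted p = 0.0556) or combination 2 (adjusted p = 0.0903). Their higher counts were 11, 1, 3 and 1 for complex I and 6, 1, 5 and 2 for the proteasome, and 10 and 8 with the length score as a covariate. Of 77 cytosolic ribosomal protein genes 5 rose and 0 fell, and 72 estimates were positive, with higher counts of 11, 1, 2 and 1. The 13 mitochondrially encoded mRNAs had a median of -0.46 log2 with none called by limma, while their summed share of reads was 6.81% and 7.95% in vehicle and 5.51% and 4.68% in the combination.

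Of 452 numbered zinc finger genes tested (476 listed) 106 rose and 11 fell, with a median of 0.23 log2. ZNF302 rose from 10.4 and 10.4 to 22.8 and 21.9 CPM (1.03 log2, SE 0.15, adjusted p = 5.98e-05), and ZNF467 fell from 7.21 and 8.37 to 2.14 and 2.84 CPM (-1.34 log2, adjusted p = 0.000645). Of 232 on chromosome 19, where clustered KRAB zinc finger genes lie, 61 rose and 3 fell, against 45 and 8 of 220 elsewhere. The higher count was 56, 67, 59 and 47 and the lower count 11, 4, 5 and 5. Some of these genes are similar in sequence, and whether reads were shared among them was not tested.

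Gene type and span were described in the same way for the 16145 tested genes that matched RefSeq. Pseudogenes were called higher in 122 of 830 and lower in 11. Of 3808 protein-coding genes with the longest genomic spans (78.5 kb and above) 541 fell (14.2%) and 427 rose, and of the 3808 with the shortest spans 476 fell and 366 rose. At least 2-fold falls numbered 112 among the longest and 74 among the shortest.

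**Figure D4:**
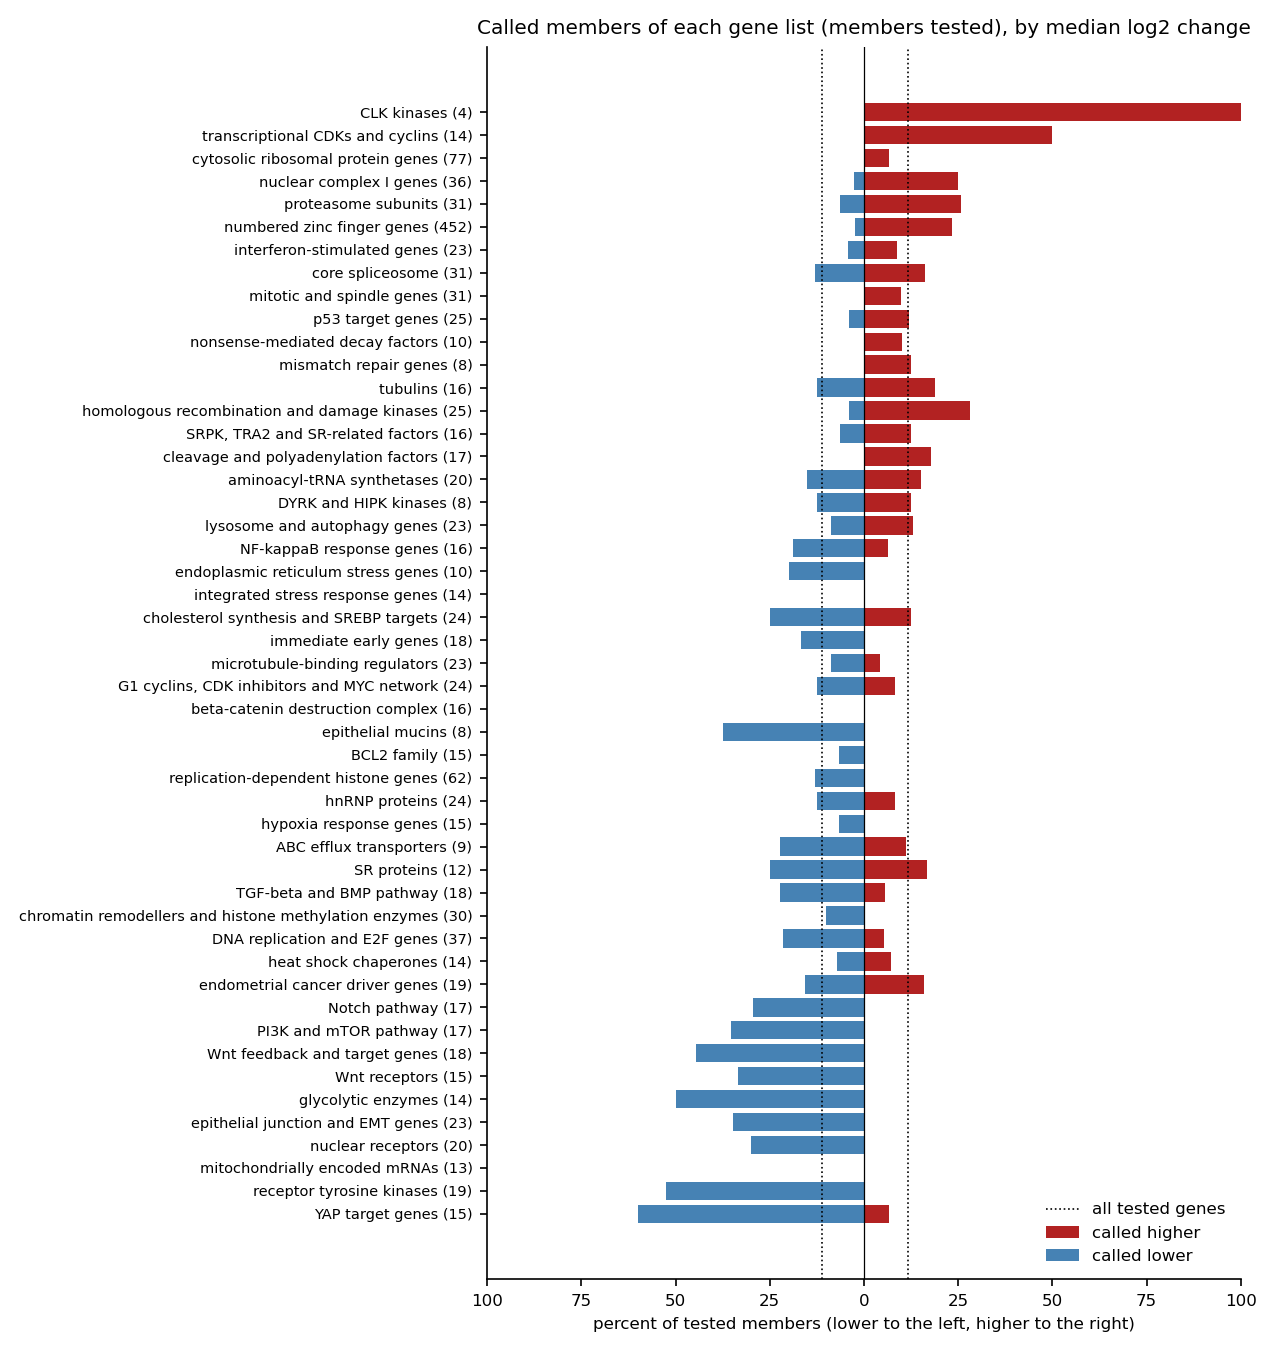
Percent of tested members called higher (red, to the right) and lower (blue, to the left) for each list with at least 4 tested genes (marker lists and the lists drawn up after values were seen are not drawn), ordered by median change, with the number tested in brackets. Dotted lines mark all tested genes (11.6% higher and 11.2% lower), and the CLK kinases and the YAP targets lie at opposite ends.

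Epithelial markers, which the labelled cell type should hold, were present in both groups. EPCAM, an epithelial adhesion molecule, was at 299 and 268 against 318 and 320 CPM (0.17 log2, adjusted p = 0.249). Of 7 epithelial markers 4 fell, among them KRT8 (450 and 423 to 257 and 242 CPM, -0.80 log2, adjusted p = 0.00203) and CLDN3, a tight junction protein (57.5 and 57.6 to 29.9 and 30.9 CPM, -0.90 log2, adjusted p = 0.00131). Summed over the class the level was 1527 and 1412 CPM in vehicle and 1135 and 1079 CPM in the combination. All 6 Müllerian and endometrial transcription factor genes were called, 5 lower and HOXA10 higher (0.29 log2, adjusted p = 0.0299). MSX1, a homeobox gene, fell from 95.7 and 113 to 36.4 and 36.6 CPM (-1.48 log2, adjusted p = 5.94e-05), and SOX17 from 177 and 174 to 124 and 115 CPM (-0.55 log2, adjusted p = 0.00102). HOXA10 was not called with any 1 library left out (adjusted p from 0.0502 to 0.229), PAX8 was not called without vehicle 2 (adjusted p = 0.171), combination 1 (adjusted p = 0.0839) or combination 2 (adjusted p = 0.0813), EMX2 was not called with any 1 library left out (adjusted p from 0.0557 to 0.187), and FOXA2, under 2 CPM throughout, was not called without vehicle 2 (adjusted p = 0.0905) or combination 2 (adjusted p = 0.13). The count called lower was 4, 2, 3 and 2. In bulk RNA, fewer cells of a type and less RNA per cell cannot be told apart.

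Markers of other cell types were low. The 4 endothelial markers summed to 2.84 and 3.07 CPM in vehicle and 2.20 and 3.73 CPM in the combination. The 5 immune markers summed to 17.1 and 19.3 against 26.6 and 23.5 CPM, nearly all from CD68, a lysosomal protein also made outside macrophages, and CD3E was at 0.0617 and 0 CPM in vehicle and 0 in both combination libraries. The fibroblast class of 6 genes summed to 113 and 162 against 52.6 and 46.8 CPM, of which COL1A1 gave 109 and 158 against 49.0 and 44.0 CPM. Its other members, COL1A2, COL3A1, DCN, LUM and PDGFRB, were each at about 2 CPM or under, so the defining stromal markers other than COL1A1 were near 0.

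Lists with few or no calls included the integrated stress response (0 of 14 called by limma, median -0.07 log2) and heat shock chaperones (1 higher and 1 lower of 14). Others were hypoxia genes (1 lower of 15), interferon-stimulated genes (2 higher and 1 lower of 23) and immediate early genes (3 lower of 18, 16.7%). In the test of the difference from the other lines, given below, 5 of the 14 stress response genes were called, against 3.5% of all genes. That count was picked after values were seen. Endometrial cancer driver genes split 3 higher and 3 lower of 19, lysosome and autophagy genes 3 and 2 of 23, and aminoacyl-tRNA synthetases 3 and 3 of 20. Of 30 chromatin remodellers and histone methylation enzymes 3 fell and 0 rose, and of 8 epithelial mucins 3 fell and 0 rose. With 1 library left out the lower counts were 2, 0, 1 and 0 for driver genes, 2, 0, 1 and 2 for chromatin enzymes, 3, 0, 1 and 1 for mucins and 2, 1, 2 and 1 for immediate early genes. The higher counts were 1, 1, 0 and 0 for lysosome genes and 1, 0, 0 and 0 for interferon-stimulated genes, and the hypoxia call was lost each time. Cholesterol synthesis genes split 3 higher and 6 lower of 24, with lower counts of 4, 3, 4 and 2 and higher counts of 2, 2, 2 and 0. Of 23 junction and EMT genes 8 fell and 0 rose, with CDH1, E-cadherin, at 248 and 271 against 154 and 134 CPM (-0.85 log2, adjusted p = 0.00607), a call lost without vehicle 2 (adjusted p = 0.0578) or combination 2 (adjusted p = 0.0726). That count was 7, 3, 5 and 4 without vehicle 1, vehicle 2, combination 1 and combination 2.

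Whether paclitaxel added to SM08502 was asked by setting the combination against SM08502 alone. No gene was called (0% of 17011), with 308 genes at an unadjusted p under 0.05 and 0 called by limma voom, and the median 95% interval reached 0.38 log2 to either side. That width is for a single gene, and the adjustment over all genes sets the limit of detection well above it. The SM08502 replicates differed by 0.459 log2 (root mean square), which limits this comparison. The higher genes with the smallest p were TUBA1A, TUBB2A and SLC22A17, none of them called. TUBA1A was at 133 and 201 CPM with SM08502 and 258 and 254 CPM with the combination (0.65 log2, interval 0.32 to 0.97, adjusted p = 0.943), and TUBB2A at 19.3 and 18.9 against 31.1 and 29.3 CPM (0.64 log2, adjusted p = 1). For SLC22A17 the difference was 0.68 log2 (adjusted p = 1). On the lower side, also not called, were SLC14A2 (-0.63 log2, adjusted p = 0.989), RSPO3, a Wnt-potentiating ligand at 6.07 and 5.29 against 2.87 and 3.88 CPM (-0.62 log2, adjusted p = 1), and PAQR5 (-0.35 log2, adjusted p = 1).

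Against the same vehicle libraries, SM08502 alone changed CLK1 by 1.58 log2, ACTA2 by -2.46 log2 and LEFTY1 by -2.58 log2, and paclitaxel alone changed them by 0.42, -0.94 and -0.68 log2, none of the paclitaxel changes called. These contrasts share their controls with the combination, so their likeness is not tested here. A departure of the combination from the sum of the single-drug changes was called for 1 gene (0.00588% of those tested, 581 at an unadjusted p under 0.05), the clone-named RP11-432M8.2 at 1.11 and 0.998 CPM in vehicle and 0.122 and 0.224 CPM in the combination (-0.96 log2, adjusted p = 0.0418), named after its value was seen. This call was lost whichever of the 8 Ishikawa libraries was left out: between 0 and 9 genes were then called (9 without paclitaxel 2), and RP11-432M8.2 was never among them. HOXA10 was 0.56 log2 above the sum (adjusted p = 0.526) and CYP3A5 0.89 log2 below it (-0.89 log2, adjusted p = 1).

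Whether the response differed from that of the 3 CTNNB1-mutated lines was tested as the Ishikawa change minus the mean of their changes. Line, CTNNB1 status, doses and RNA input differ together here and cannot be told apart. The test called 596 genes (3.5%), 202 higher (1.19%) and 394 lower (2.32%), and 3261 had an unadjusted p under 0.05. The direction of this count depended on scaling: 33.9% of calls were higher with CPM, 56.8% with re-centred libraries and 44.9% with median-of-ratios size factors. Combination 2 of Ishikawa-S33Y and of SNGM were shallow, at 2991041 and 1607038 reads, and without both 1246 genes were called, 591 of them shared. Leaving out the Ishikawa libraries vehicle 1, vehicle 2, combination 1 and combination 2 gave 267, 127, 156 and 112. Of the other lines, counts moved by over 1.5 times without Ishikawa-S33Y vehicle 2 (338), SNGM vehicle 2 (384), SNGM combination 1 (1810) and 2 (932), and HEC265 vehicle 1 (352), vehicle 2 (346) and combination 2 (354).

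No difference between the lines was detected for the CLK1 rise. CLK1 changed by 1.76 log2 here, against 1.87 (Ishikawa-S33Y), 1.44 (SNGM) and 1.92 (HEC265), a difference of 0.01 log2 (interval -0.32 to 0.35, adjusted p = 0.97). LRP5 changed by -1.68, -2.73, -1.30 and -1.89 log2 in the same order (difference 0.30 log2, interval -0.48 to 1.08, adjusted p = 0.7). TAGLN changed by -1.33, -1.36, -1.23 and -1.30 log2 (interval of the difference -0.47 to 0.40, adjusted p = 0.94). Its SNGM change is of low values, 1.76 and 2.46 CPM in vehicle against 0.742 and, in the shallow library, 0 CPM in the combination. Ishikawa vehicle read 290 and 294 CPM.

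Several of the largest differences were of genes at low level in the other lines. LEFTY1 differed by -2.20 log2 (adjusted p = 0.00026): its changes were -2.67 log2 in Ishikawa and -2.85 log2 in Ishikawa-S33Y, where vehicle read 9.31 and 9.47 CPM, while SNGM and HEC265 vehicle read at most 0.154 CPM. HIST1H3D is listed at 0 in all 12 vehicle and combination libraries of the other lines, so its difference of -2.07 log2 describes Ishikawa alone. ACTA1 differed by -1.87 log2 (adjusted p = 0.00015), with 0.838 and 1.34 CPM in Ishikawa-S33Y vehicle and at most 0.319 CPM in SNGM and HEC265 vehicle. ACTA2, in contrast, was present in every line, at 16.1 and 16.1 CPM in SNGM vehicle and 16.2 and 15.6 CPM in HEC265 vehicle, and changed by -0.42 and -0.34 log2 there, against -1.79 log2 in Ishikawa-S33Y. The SNGM combination libraries lay on either side of vehicle, at 19.8 CPM and, in the shallow library, 6.84 CPM. The test of the difference was called (difference -2.03 log2, adjusted p = 0.0013).

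Genes expressed in all 4 lines gave differences of another kind. MYC changed by -0.93 log2 here and by -0.03, 0.09 and 0.18 log2 in the mutated lines, in the order above (difference -1.01 log2, adjusted p = 0.00075). GDF15 changed by -0.85 log2 against -0.07, 1.53 and 1.27 log2 (difference -1.76 log2, adjusted p = 1.8e-05). CDKN1A and MDM2, both p53 targets, differed by -0.64 log2 (adjusted p = 0.018) and -0.56 log2 (adjusted p = 0.01): CDKN1A changed by -0.01 log2 against 0.16, 0.97 and 0.78 log2. On the higher side, FGFR3, a growth factor receptor, changed by -0.47 log2 in Ishikawa (adjusted p = 0.0582) against -2.31, -1.06 and -1.57 log2 (difference 1.18 log2, adjusted p = 0.0028). TRIO, a guanine nucleotide exchange factor, changed by 0.59 log2 against 0.47, -1.13 and -0.92 log2 (difference 1.11 log2, adjusted p = 0.0034), and its Ishikawa change was not called with any 1 library left out (adjusted p from 0.053 to 0.124). C1orf101 and CH507-9B2.3 were the other 2 of the largest differences upward (1.09 and 1.17 log2). Unlike the other genes of this paragraph, C1orf101 was near 0 in HEC265 vehicle, at 0.579 and 0.463 CPM against 6.23 and 5.99 CPM in Ishikawa vehicle.

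**Figure D5:**
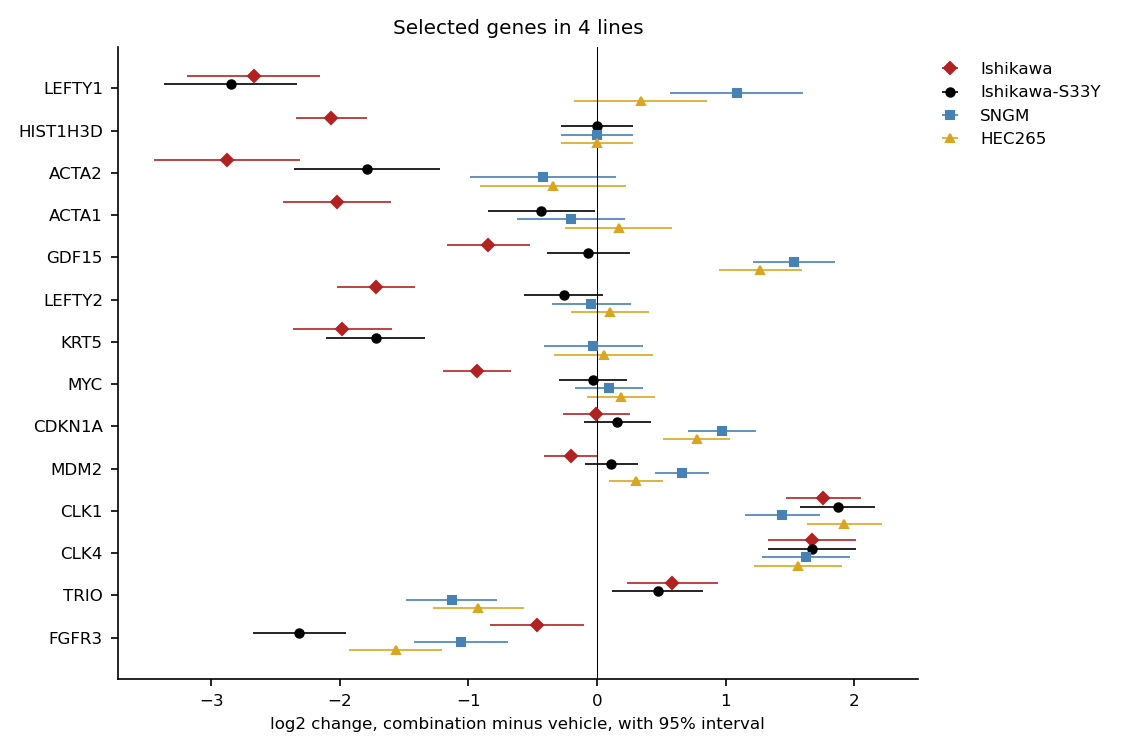
Log2 change of combination minus vehicle in each of the 4 lines (points) with 95% intervals (bars) for 14 genes. CLK1 and CLK4 lie above 0 in all 4 lines, LEFTY1 lies at -2.67 in Ishikawa and -2.85 in Ishikawa-S33Y, and GDF15 lies at 1.53 in SNGM and 1.27 in HEC265.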

How the data were processed

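Per the submitters' processing notes, bcl2fastq, STAR and kallisto were used with build GRCh38; versions, roles, annotation and strand of counting are not given in the sources used here. The values the authors deposited are log10 of CPM plus 1 for 35238 genes in 32 libraries, without filtering. They were taken back to CPM, which sum to 1000000 in each library, and every value (100%) came out as a whole read number within 0.05 read, which gives the depths. The filter (CPM over 1 in 2 or more libraries) left 17011 genes. Limma 3.58.1 in R 4.3.3 was fitted to log2(CPM + 1) over all 32 samples, with 1 mean per group. Moderation used an intensity trend (16 residual and 4.90 prior degrees of freedom). Two-sided p were adjusted over all genes by the Benjamini-Hochberg method, and genes were called under 0.05. The script was also run on simulated counts in which all libraries had the same spread setting, unlike the real groups. Its pass mark for 2-fold changes was lowered after a first run fell short. Intervals are 95%.

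Members, lists and named genes were chosen with earlier results of these data known. The named genes were the 12 largest called rises and falls with a mean log2(CPM + 1) of at least 2 and no overlap, the largest called rise and fall of each list, a fixed set, the 4 largest line differences each way, and those with the smallest p for the other comparisons (3 and 2 each way). Some genes that the rule names are not reported here. Other genes given with values were chosen after their values were seen. A list of 11 snoRNA host transcripts was not analysed here. Alternatives were a different filter, pseudocount (0.1), scaling, moderation, sample set, replicate block and limma voom on recovered reads, each library left out, and, chosen after seeing the data, the length score as a covariate. RefSeq (GRCh38.p14) supplied positions for 94.9% of tested genes by symbol, and 12427 tested genes had a promoter entry.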

Additional observations from a re-analysis of the deposited data

Results flagged for a closer look

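The combination changed the named genes below differently in Ishikawa than in the mean of the other 3 lines, by the test of that difference in limma with Benjamini-Hochberg adjustment. Differences in log2 change were negative for ACTA2 (-2.03), LEFTY1 (-2.20), SLC14A2 (-1.29), HIST1H3D (-2.07), EDN2 (-0.89), ACTA1 (-1.87), KRT5 (-1.41), ITIH5 (-1.42), MEOX1 (-1.10), SRSF8 (-0.57), APCDD1 (-1.12), MYC (-1.01), GDF15 (-1.76), BCL2 (-0.74), TGFB1 (-1.04), FJX1 (-1.01), TNFAIP2 (-0.97), HSPB1 (-0.64), CDKN1A (-0.64), MDM2 (-0.56) and PAQR5 (-0.79). They were positive for ATR (0.44), MLH3 (0.58), FGFR3 (1.18), CH507-9B2.3 (1.17), TRIO (1.11) and C1orf101 (1.09). HIST1H3D is listed at 0 in the other lines. LEFTY1, ACTA1, KRT5, MEOX1 and APCDD1 were at about 1 CPM or under in SNGM and HEC265 vehicle. ITIH5 was at 1.99 CPM or under there, and SLC14A2, TGFB1 and C1orf101 were under 1 CPM in HEC265 vehicle. The differences of these genes describe the lines that express them. Some listed genes also fell in Ishikawa-S33Y: ITIH5 from 259 and 255 to 63.4 and 57.2 CPM, and EDN2 from 51.3 and 48.3 to 3.65 and 7.36 CPM. MYC was at 64.3 and 61.6 against 53.7 and 70.5 CPM in that line. The causes were not tested.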

How the results depend on the processing

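With the Ishikawa libraries alone 362 genes were called for the combination against vehicle (356 shared with the 3886), and leaving out 1 library gave 1674 to 2520. The line difference gave 337 calls with pseudocount 0.1, 2130 with the length score as a covariate, 1246 without both shallow libraries and 112 to 1810 with 1 library left out. The combination against SM08502 gave 39 calls without a filter on low values, 1 without the intensity trend, 1 with the length score and 0 to 3 with 1 library left out. The departure from additivity gave 47 without a filter and 0 under the stricter filter, pseudocount 0.1, re-centring, quantile normalization, median-of-ratios size factors, the Ishikawa libraries alone, limma voom and the length score, and 0 to 9 with 1 library left out. No called change of a named gene turned sign under an alternative, while estimates that were not called crossed 0 for some genes (LRP6, CTNNB1, CDKN1A and ABCB1 among them). The labels do not say that replicate numbers pair the samples, and the correlation of deviations across genes was 0.014 for vehicle with combination, -0.28 and -0.33 for vehicle with paclitaxel and SM08502, 0.17 and 0.16 for combination with paclitaxel and SM08502 and 0.70 for paclitaxel with SM08502. The numbers were taken as shared names, and with the replicate block the 4 counts were 3940, 556, 0 and 0. The causes were not tested. Groups of 2 libraries and, in the other lines, 2 shallow libraries limit precision.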
